A study of Mus with 18 samples.

Results

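The unfolded protein response and the integrated stress response were described through 10 genes, Hspa5, Herpud1, Dnajb9, Xbp1, Atf4, Ddit3, Atf3, Trib3, Asns and Chac1. The members were given by name, with earlier results of these data known, and all 10 were found among the 21401 gene symbols of both expression tables. RNA was sequenced from samples labelled as C2C12, a line of mouse myoblasts, and from the gastrocnemius, a calf muscle, of male wild-type C57BL/6 mice whose age is not given. Each experiment had 3 groups of 3 libraries, 18 libraries in all. In the cell experiment the control received saline, the LPS group received lipopolysaccharide (LPS, a component of the outer membrane of Gram-negative bacteria) at 1 μg/mL, and the LPS-MIC-1 group received LPS with moringa isothiocyanate-1 (MIC-1), an isothiocyanate from seeds of Moringa oleifera, for 24 h. The dose of MIC-1 in cells is 10 μM by the sample labels, whereas the published description of the transcriptome experiment has 1 μM. In the animal experiment the control received saline, LPS was injected into the peritoneum at 10 mg/kg and muscle was taken 16 h later, and the LPS-MIC-1 mice had received MIC-1 by gavage at 80 mg/kg daily for 3 days before LPS. The labels name saline for both controls, whereas the methods name a solvent vehicle. No group in either experiment received MIC-1 alone. All cell libraries are labelled as a single cell line, and nothing states whether the 3 libraries of a group came from separate cultures, so that p-values there measure only the spread between these libraries.

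The unfolded protein response is the reaction of a cell to misfolded protein in the endoplasmic reticulum (ER). Its sensors IRE1, PERK and ATF6 switch on ER chaperones and the machinery that removes misfolded protein, IRE1 by splicing the mRNA of Xbp1. PERK and other kinases of eIF2α form the integrated stress response, in which general translation falls while the transcription factor ATF4 is translated and induces genes of amino acid supply and stress adaptation, and skeletal muscle is known to use this program in fasting, disuse and mitochondrial disease. Values per gene show the amount of mRNA and not splicing of Xbp1, phosphorylation of eIF2α or translation of Atf4.

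The labelled cell type was compared with marker genes before the stress genes. Summed over 9 myoblast markers, the 3 libraries labelled C2C12 control held 0.136 to 0.361 FPKM, the 3 labelled LPS 0.364 to 2.23 FPKM and the 3 labelled LPS-MIC-1 787 to 996 FPKM. No gene of this list, which includes Myod1, averaged over 1 FPKM in the control or LPS libraries. Myf5, Pax7 and Myf6 were listed at 0 in every control and LPS library, and Myog and Tnnt2 also in every control library. Summed over the 10 macrophage markers found of 11, the same groups held 9652 to 9705, 6897 to 7068 and 79.8 to 268 FPKM, and Lyz2, the lysozyme of macrophages, averaged 4694, 1839 and 17.1 FPKM. Cd14, another marker of this list, averaged 705, 2040 and 99.3 FPKM. The myoblast marker Des (desmin) averaged 0.126, 0.498 and 398 FPKM, and the sum of 7 fibroblast markers was 0.202 to 0.416, 0.973 to 2.09 and 464 to 562 FPKM. The libraries labelled control and LPS thus lacked the markers of their labelled cell type and carried those of macrophages, so every C2C12 comparison with LPS-MIC-1 below lies between libraries that differ in cell type markers as well as in treatment, and the 2 cannot be told apart. The groups are therefore called libraries labelled control, LPS and LPS-MIC-1, and no comparison with LPS-MIC-1 could be made without the libraries that went against their label. In muscle, the sum of 10 muscle fibre genes was 185303 to 190530 FPKM in control, 178688 to 182754 FPKM after LPS and 142501 to 155075 FPKM after LPS-MIC-1. Macrophage markers summed to 16.2 to 19.4, 21.0 to 24.3 and 30.6 to 180 FPKM. LPS-MIC-1 replicates 1, 2 and 3 held 32.3, 30.6 and 179.8 FPKM, all above the libraries of the other groups. The 4 neutrophil markers found of 5 summed to 0.216 to 0.570, 0.220 to 0.910 and 9.20 to 15.1 FPKM. Endothelial markers summed to 61.3 to 65.7, 39.3 to 41.5 and 39.9 to 44.0 FPKM. Adipocyte markers summed to 286.5 to 290.0, 218.6 to 239.8 and 313.8 to 342.0 FPKM, and hepatocyte markers to 0.252 to 0.944, 0 to 0.0394 and 2.72 to 6.41 FPKM. Among the adipocyte markers only Fabp4 averaged over 1 FPKM (287, 227 and 325 FPKM), and Adipoq averaged 0.400, 0.451 and 0.689 FPKM. Fibroblast markers summed to 124.1 to 129.8, 128.2 to 130 and 141.9 to 160.9 FPKM, and myoblast markers to 1698 to 1810, 1758 to 1774 and 1821 to 1960 FPKM. Of the fibroblast markers, Dcn averaged 69.4, 74.6 and 119.8 FPKM, but Col3a1 averaged 18.4, 16.9 and 7.23 FPKM. In bulk RNA of this kind, fewer cells of a type and less RNA per cell cannot be told apart. The depth of each library is unknown, but the authors gave mean normalised counts over the libraries of a comparison. For the 10 genes these ranged from 306 (Chac1) to 64978 (Hspa5) in C2C12. In the 2 muscle comparisons with LPS-MIC-1 they ranged from 27.3 (Trib3) to 3768 (Herpud1).

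**Figure D1:**
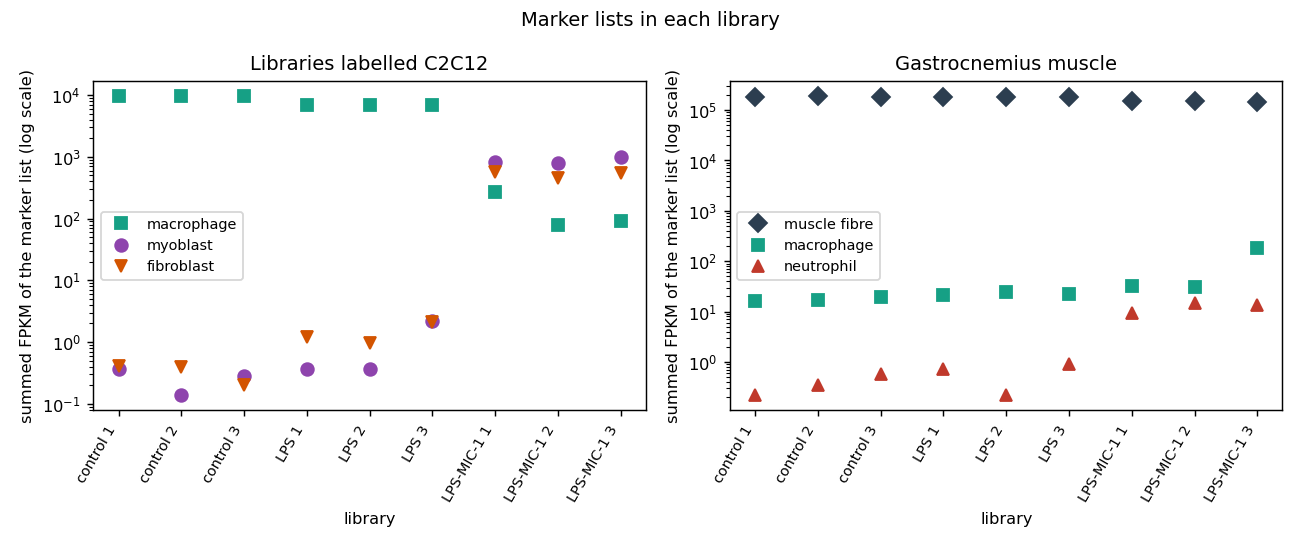
Summed FPKM of marker lists in each of the 18 libraries on a log axis, with 1 symbol per library and list, for libraries labelled C2C12 (left) and gastrocnemius muscle (right). On the left the myoblast sum lies at or below 2.23 FPKM in the 6 libraries labelled control and LPS and at or above 787 FPKM in the 3 labelled LPS-MIC-1; on the right the neutrophil sum is 9.20 FPKM or more in the LPS-MIC-1 libraries alone.

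Levels are given in FPKM, sequenced fragments scaled by the length of the transcript and by the mapped fragments of the library, so that levels of different genes can be compared. Differences are log2 fold changes of FPKM + 0.1 from limma, with adjusted p-values over all genes tested in a comparison. A gene was called upregulated or downregulated where the log2 fold change passed 1 in either direction and the adjusted p was below 0.001 (C2C12) or 0.05 (muscle). The comparisons within an experiment share libraries and are not independent of each other.

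In the libraries labelled C2C12, LPS against control raised 8 of the 10 genes and lowered Xbp1, so that 9 of 10 passed both thresholds, whereas of the 10877 genes tested 10.9% were called higher and 10.0% lower, 20.9% in all. The median log2 fold change of the 10 genes was 2.11, and that of all genes tested was 0. All 10 genes had groups that did not overlap, 9 higher and Xbp1 lower, beside 39.4% and 40.1% of all genes tested that did not overlap in each direction. With 3 libraries against 3 an exact permutation test cannot give a two-sided p below 0.1, and it gave 0.1 for each of these 10 genes. Summed macrophage markers were lower after LPS than in control without overlap, while Cd14 was higher, at the values given above. The part of these markers in the differences was not tested.

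Among the genes of the ER arm, Hspa5, which encodes BiP, the main chaperone of the ER lumen, was the most abundant. In replicates 1, 2 and 3 it measured 352.5, 368.5 and 375.1 FPKM in the libraries labelled control, 2615, 2573 and 2631 FPKM in those labelled LPS, and 549.9, 542.5 and 469.6 FPKM in those labelled LPS-MIC-1. The 3 groups did not overlap, and the LPS libraries stood far above the other two groups. Hspa5 was 7.13-fold higher after LPS than in control (log2 fold change 2.84 ± 0.07 SE, adjusted p = 4.57e-08) and 5.01-fold lower in the LPS-MIC-1 libraries than in LPS (−2.33 ± 0.07, adjusted p = 1.91e-08). Its LPS-MIC-1 libraries were still above control, by 0.51 on the log2 scale (adjusted p = 0.000177), a difference under the fold threshold that turned to −0.11 with quantile normalization.

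Dnajb9, a co-chaperone of BiP, followed the same order of groups. It measured 11.3, 13.1 and 11.5 FPKM in control, 53.6, 52.1 and 52.2 FPKM in LPS and 12.6, 12.3 and 12.6 FPKM in LPS-MIC-1. The LPS libraries were 4.40-fold above control (adjusted p = 9.78e-08) and 4.21-fold above LPS-MIC-1 (adjusted p = 2.41e-08), and the LPS-MIC-1 and control libraries overlapped, with a 95% interval of their log2 difference from −0.08 to 0.22. Herpud1, a membrane protein of ER-associated degradation (ERAD), measured 45.3, 49.5 and 45.4 FPKM in control, 81.9, 84.7 and 80.1 FPKM in LPS and 74.6, 83.9 and 101.9 FPKM in LPS-MIC-1. It did not pass the fold threshold between LPS and control (log2 fold change 0.81 ± 0.10, adjusted p = 0.000209), and its LPS and LPS-MIC-1 libraries overlapped, with an interval of the log2 difference from −0.18 to 0.31.

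Xbp1, the transcription factor whose mRNA is spliced by IRE1, was the member that went the other way. It measured 156.9, 153.6 and 149.1 FPKM in control, 59.9, 62.1 and 65.7 FPKM in LPS and 21.5, 27.6 and 20.4 FPKM in LPS-MIC-1. The groups stepped down without overlap, 2.45-fold from control to LPS (log2 fold change −1.29 ± 0.10, adjusted p = 1.48e-05) and 2.70-fold from LPS to LPS-MIC-1 (−1.44 ± 0.10, adjusted p = 2.95e-06). Between LPS-MIC-1 and control Xbp1 was 6.62-fold lower (adjusted p = 7.38e-08).

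In the arm of ATF4, the transcription factor itself measured 176.7, 187.4 and 182.3 FPKM in control, 590.7, 609.8 and 628.0 FPKM in LPS and 206.7, 201.7 and 188.0 FPKM in LPS-MIC-1. Atf4 was 3.35-fold higher after LPS (log2 fold change 1.74 ± 0.05, adjusted p = 8.17e-08) and 3.07-fold lower in the LPS-MIC-1 libraries than in LPS (−1.62 ± 0.05, adjusted p = 2.37e-08). LPS-MIC-1 stood only 0.13 above control on the log2 scale (adjusted p = 0.0462, not past the threshold of 0.001), and at −0.36 with quantile normalization.

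Ddit3 encodes CHOP, a transcription factor linked to cell death in prolonged ER stress, and had the largest log2 fold change of the 10 genes between LPS and control. It measured 16.9, 16.1 and 19.0 FPKM in control, 175.2, 182.8 and 191.1 FPKM in LPS and 46.2, 44.1 and 33.8 FPKM in LPS-MIC-1. No groups overlapped. The rise with LPS was 10.6-fold (log2 fold change 3.40 ± 0.12, adjusted p = 2.05e-07), LPS-MIC-1 was 4.42-fold below LPS (adjusted p = 5.65e-07) and 2.39-fold above control (adjusted p = 2.05e-05).

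Atf3, a stress-induced transcription factor, was the only one of the 10 genes to rise with LPS and then lie below control in LPS-MIC-1. It measured 120.7, 120.1 and 117.3 FPKM in control, 499.1, 513.1 and 502.9 FPKM in LPS and 38.7, 20.6 and 23.1 FPKM in LPS-MIC-1. The 3 groups lay apart, with LPS 4.23-fold above control (adjusted p = 4.23e-05), LPS-MIC-1 18.4-fold below LPS (log2 fold change −4.25 ± 0.20, adjusted p = 2.29e-07) and 4.34-fold below control (adjusted p = 1.66e-05).

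Trib3, Asns and Chac1 are targets of ATF4 and CHOP. Trib3, a pseudokinase that dampens AKT signalling and ATF4 activity, measured 8.19, 7.47 and 8.80 FPKM in control, 60.5, 62.3 and 61.7 FPKM in LPS and 17.4, 14.8 and 20.5 FPKM in LPS-MIC-1. It was 7.54-fold higher after LPS (adjusted p = 3.79e-07), 3.50-fold lower in the LPS-MIC-1 libraries than in LPS (adjusted p = 1.26e-06) and 2.15-fold higher in LPS-MIC-1 than in control (log2 fold change 1.09, adjusted p = 3.69e-05; 0.97 without LPS-MIC-1 replicate 3, under the fold threshold). Asns, asparagine synthetase, measured 69.5, 69.7 and 69.7 FPKM in control, 198.8, 206.8 and 205.4 FPKM in LPS and 79.2, 73.2 and 100.4 FPKM in LPS-MIC-1. It was 2.93-fold higher after LPS (adjusted p = 4.97e-06) and 2.42-fold lower in the LPS-MIC-1 libraries than in LPS (adjusted p = 5.56e-06), and LPS-MIC-1 was above control by a log2 difference of 0.26 that was not called (adjusted p = 0.0437) and was −0.03 with quantile normalization. Chac1, an enzyme that degrades glutathione, measured 5.23, 4.60 and 4.44 FPKM in control, 24.7, 22.3 and 25.0 FPKM in LPS and 21.9, 16.3 and 28.3 FPKM in LPS-MIC-1. It was 5.04-fold higher after LPS (adjusted p = 1.26e-05) and 4.66-fold higher in LPS-MIC-1 than in control (adjusted p = 8.68e-06), while LPS and LPS-MIC-1 overlapped, with an interval of the log2 difference from −0.57 to 0.27.

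Between LPS-MIC-1 and LPS, 8 of the 10 genes were thus downregulated and none upregulated, with Herpud1 and Chac1 not called. In this comparison 25.6% of all 10877 genes were called lower and 24.3% higher, 49.9% in all, and the median log2 fold change was −1.72 for the 10 genes and −0.05 for all genes. The 8 called genes were also those without overlap, beside 43.7% of all genes lower and 41.8% higher without overlap. Between LPS-MIC-1 and control, Ddit3, Trib3 and Chac1 were called higher and Atf3 and Xbp1 lower, 5 of 10 genes, beside 21.1% of all genes called higher and 22.1% lower, 43.3% in all. The latter share, 5 of 10, was near that of all genes. Macrophage and myoblast markers moved with both comparisons, and their part in these differences was not tested. Without LPS-MIC-1 replicate 1, the library of its group with the most macrophage markers, the counts of called genes were 9, 8 and 5 in the 3 comparisons, as with it. This cannot separate markers from treatment. Replicates 2 and 3 still held 79.8 and 90.7 FPKM of macrophage markers, against 6897 FPKM or more in the LPS and control libraries. Their myoblast markers summed to 787 and 996 FPKM, against at most 2.23 FPKM there.

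**Figure D2:**
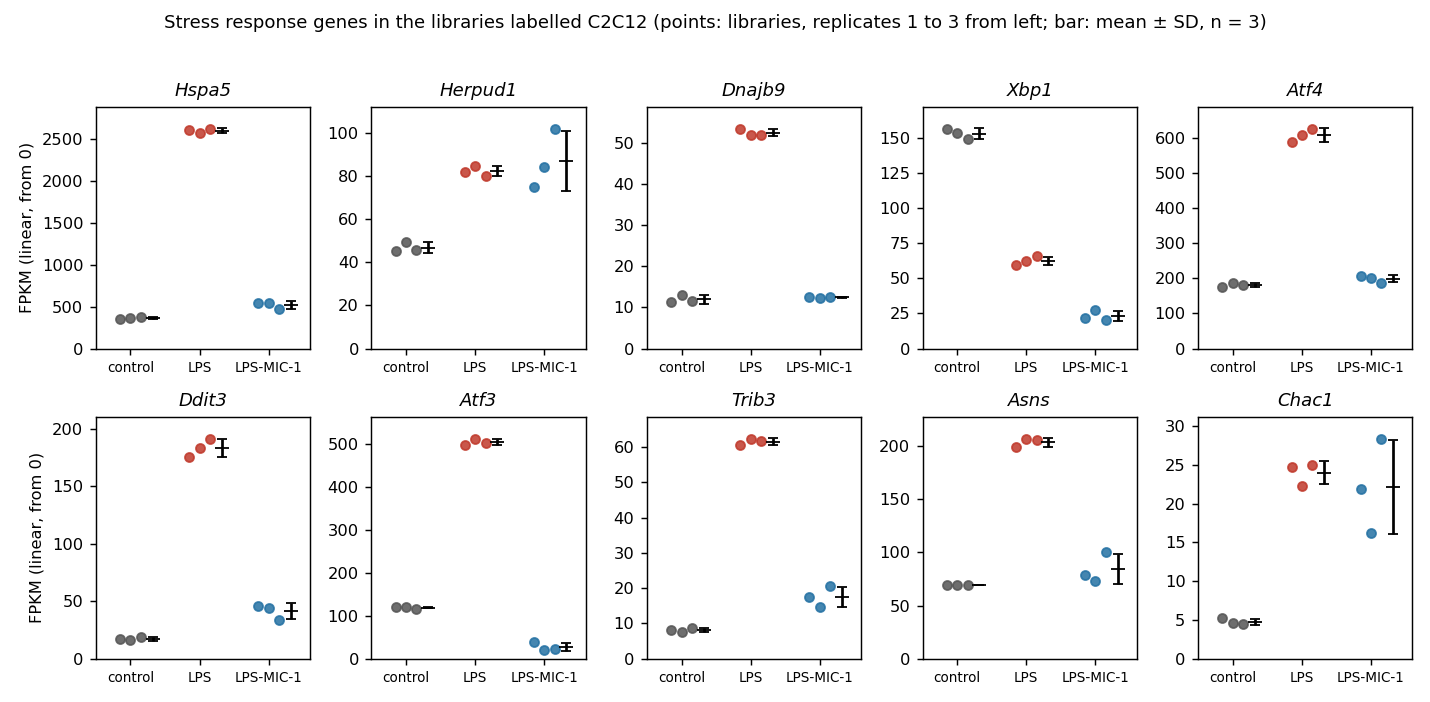
FPKM of the 10 stress response genes in the 9 libraries labelled C2C12, on linear axes that start at 0 and differ between panels. Points are libraries, replicates 1 to 3 from left, and bars are the mean ± SD (n = 3); the LPS libraries are the highest for Hspa5, Dnajb9, Atf4, Ddit3, Atf3, Trib3 and Asns, Xbp1 steps down from group to group, and LPS and LPS-MIC-1 overlap for Herpud1 and Chac1.

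The order of levels in control libraries ran from Hspa5 (365 ± 12 FPKM, SD, n = 3) through Atf4 (182 ± 5), Xbp1 (153 ± 4), Atf3 (119 ± 2), Asns (69.6 ± 0.1), Herpud1 (46.7 ± 2.4), Ddit3 (17.3 ± 1.5), Dnajb9 (11.9 ± 1.0) and Trib3 (8.15 ± 0.66) to Chac1 (4.76 ± 0.41), and no neighbours overlapped. After LPS, Hspa5 (2606 ± 30 FPKM), Atf4 (610 ± 19) and Atf3 (505 ± 7) led, Ddit3 (183 ± 8) had moved from the 7th place to the 5th, Xbp1 (62.5 ± 2.9) had moved from the 3rd to the 7th, and Xbp1 and Trib3 (61.5 ± 0.9) overlapped. In LPS-MIC-1 the order was Hspa5, Atf4, Herpud1, Asns, Ddit3, Atf3, Xbp1, Chac1, Trib3 and Dnajb9. There, Herpud1 (86.8 ± 13.9) and Asns (84.3 ± 14.3) overlapped, as did each neighbouring pair from Ddit3 (41.4 ± 6.7) down to Trib3 (17.6 ± 2.9).

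The wider pathway was followed through 105 further genes in 6 roles, of which 100 were tested in C2C12. After LPS 27 of 100 were called, 23 higher and 4 lower, beside the 20.9% of all genes, with a median log2 fold change of 0.39. Feedback and stress regulators of the integrated stress response were called most often, with 6 of 10 higher, beside 10.9% of all genes. Ddit4 (REDD1, an inhibitor of mTORC1) rose from a mean of 5.08 to 67.2 FPKM (log2 fold change 3.72) and Ppp1r15a (GADD34, which returns eIF2α to its active state) from 46.6 to 299 FPKM (2.68). Of the 10 sensors and their partners, Ern1 (IRE1α) alone was called, rising from 4.42 to 18.9 FPKM.

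Genes of amino acid supply went both ways, with 3 of 18 called higher and 3 lower, beside 10.9% and 10.0% of all genes. Cth, which makes cysteine, rose from 2.27 to 28.8 FPKM and Slc7a11, the cystine importer, from 3.21 to 22.1 FPKM. Shmt2, the mitochondrial serine hydroxymethyltransferase, fell from 233 to 83.6 FPKM and Slc1a5, a glutamine transporter, from 122 to 45.6 FPKM. Aminoacyl-tRNA synthetases had 4 of 13 called higher and 1 lower, 38.5% beside 20.9% of all genes. Cars (cysteinyl) rose from 7.28 to 35.1 FPKM and Sars (seryl) from 8.23 to 24.8 FPKM, whereas Vars (valyl) fell from 161 to 56.4 FPKM. In the ER, 3 of 21 folding genes and 6 of 28 genes of ERAD and secretion were called higher and none lower. These were 14.3% and 21.4% of those tested, beside 20.9% of all genes. Without overlap at any fold, 13 folding genes were higher and 6 lower. For ERAD and secretion 22 were higher and 3 lower, beside 39.4% and 40.1% of all genes. The called genes included Ero1l, the oxidase that drives disulfide formation (94.4 to 478 FPKM), Creld2 (54.9 to 182 FPKM), Wfs1 (1.73 to 12.9 FPKM) and Kdelr3 (0.202 to 1.60 FPKM). Adjusted p-values of the genes named here for LPS against control were between 4.50e-08 and 2.39e-05.

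Between LPS-MIC-1 and LPS, 43 of the 100 pathway genes were called, 8 higher and 35 lower, beside 49.9% of all genes, with a median log2 fold change of −0.47. Sensors and their partners had 7 of 10 called lower and none higher, beside 25.6% and 24.3% of all genes. Ern1 fell from 18.9 to 1.91 FPKM and Eif2ak4 (GCN2, the eIF2α kinase of amino acid shortage) from 10.3 to 1.64 FPKM, although the call of Eif2ak4 was lost without any LPS replicate and without LPS-MIC-1 replicate 2. Sesn2 (44.8 to 5.51 FPKM) and Ppp1r15a (299 to 52.5 FPKM) led the 4 of 10 feedback genes called lower, beside 25.6% of all genes. Without overlap at any fold, 8 of the 10 were lower, beside 43.7% of all genes.

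In amino acid supply 2 of 18 were higher and 7 lower, 50% called beside 49.9% of all genes. The serine and glycine side was split, as Phgdh, the entry enzyme of serine synthesis, was higher (92.0 to 204 FPKM), as was the neutral amino acid transporter Slc1a4 (1.37 to 9.45 FPKM), while the glycine transporter Slc6a9 fell from 18.4 to 1.07 FPKM. Slc7a1, a transporter of arginine and lysine, averaged 33.4 FPKM in LPS and 0.793 FPKM in LPS-MIC-1, with a call that was lost without any LPS replicate. The call of Phgdh was lost without LPS-MIC-1 replicate 3. Among synthetases, 1 of 13 was higher and 4 lower (38.5% called), Vars standing at 162 FPKM while Cars fell to 3.55 FPKM and Nars (asparaginyl) from 221 to 55.0 FPKM. ER folding genes had 1 of 21 higher and 5 lower (28.6% called), and ERAD and secretion genes had 4 of 28 higher and 8 lower (42.9% called), all shares below that of all genes. Ero1l fell from 478 to 29.2 FPKM, Ero1lb from 12.7 to 2.91 FPKM and Edem1, which directs misfolded glycoproteins to ERAD, from 72.6 to 10.4 FPKM. The related Edem3 averaged 10.0 FPKM in LPS and was listed at 0 in all but 1 of the LPS-MIC-1 libraries. Fkbp2 (70.3 to 184 FPKM), Kdelr3 (1.60 to 33.0 FPKM) and Wfs1 (12.9 to 71.2 FPKM) were higher.

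Against control, 41 of 100 pathway genes were called in LPS-MIC-1, 17 higher and 24 lower, beside 43.3% of all genes. Again no sensor was called higher and 6 of 10 were called lower, beside 21.1% and 22.1% of all genes. Among the 6 were Eif2ak4 (11.3 to 1.64 FPKM, a call lost without any control replicate and without LPS-MIC-1 replicate 2) and the site-2 protease Mbtps2 (13.5 to 2.96 FPKM). Ddit4 (5.08 to 24.1 FPKM), Nupr1 (42.0 to 149 FPKM), Slc3a2 (125 to 306 FPKM), Slc1a4 (2.09 to 9.45 FPKM), Aars (60.3 to 131 FPKM) and Creld2 (54.9 to 193 FPKM) were higher. Wfs1 (1.73 to 71.2 FPKM) and Kdelr3 (0.202 to 33.0 FPKM) had the largest rises. Sesn2 (12.5 to 5.51 FPKM), Slc6a9 (8.76 to 1.07 FPKM), Iars (55.6 to 19.7 FPKM), Txndc11 (21.9 to 5.57 FPKM), Ero1lb (11.2 to 2.91 FPKM) and Edem1 (62.5 to 10.4 FPKM) were lower. Edem3 averaged 5.83 FPKM in control. Calls of Stc2 (7.44 to 3.16 FPKM), Slc7a1 (27.3 to 0.793 FPKM), Cars (7.28 to 3.55 FPKM) and Fkbp2 (89.8 to 184 FPKM) were each lost when single libraries were left out, for 8, 6, 7 and 2 of the 9 libraries in turn. The shift in cell type markers stood beside all of these differences, as given above.

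In gastrocnemius muscle, LPS against control called 2 of the 9 stress genes tested, Atf3 higher and Chac1 lower, beside 0.654% of the 9475 genes tested called higher and 0.591% lower, 1.25% in all. The median log2 fold change was 0.31 for the 9 genes and 0.01 for all genes tested. Trib3 had a mean of 0.912 FPKM over the 9 muscle libraries, below the minimum of 1 FPKM, and was not tested. Over all 10 genes, 5 were higher and 3 lower without overlap between groups, beside 18.8% and 17.7% of all genes tested. Summed endothelial, adipocyte, muscle fibre and hepatocyte markers were lower in the same LPS libraries than in control without overlap. Summed macrophage markers were higher without overlap, at the values given above. The adipocyte sum was mostly Fabp4, whereas Adipoq did not fall. The part of these markers in the differences was not tested.

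Chac1, the glutathione-degrading enzyme, was the most abundant of the 10 genes in control muscle and had by far the largest change with LPS. It measured 97.3, 102.9 and 93.9 FPKM in control, 6.60, 8.66 and 8.03 FPKM after LPS and 114.8, 115.1 and 103.4 FPKM in LPS-MIC-1. Every LPS library lay below every library of the other groups. Chac1 was 12.6-fold lower after LPS than in control (log2 fold change −3.65 ± 0.10, adjusted p = 4.34e-07), and only 0.169% of genes tested had a larger absolute change. In LPS-MIC-1 it was 14.3-fold above LPS (3.83 ± 0.10, adjusted p = 1.43e-08) and did not differ from control by the thresholds, with a log2 difference of 0.18 and a 95% interval from −0.04 to 0.40.

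Atf3 was low in control and LPS muscle. It measured 0.492, 0.407 and 0.330 FPKM in control, 0.992, 1.16 and 0.698 FPKM after LPS and 21.7, 19.6 and 23.7 FPKM in LPS-MIC-1. The 3 groups did not overlap, and LPS-MIC-1 was far above both others. Atf3 was 2.32-fold higher after LPS than in control (log2 fold change 1.03 ± 0.19, adjusted p = 0.00941), a call that was lost without control replicate 3 (0.91), LPS replicate 1 (0.99) or LPS replicate 2 (0.89), each under the fold threshold. In LPS-MIC-1 it was 22.8-fold above LPS (4.40 ± 0.19, adjusted p = 4.00e-07) and 52.9-fold above control (5.43 ± 0.19, adjusted p = 1.07e-07).

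Atf4 measured 86.4, 79.7 and 75.7 FPKM in control, 97.7, 101.0 and 100.1 FPKM after LPS and 182.0, 171.0 and 154.2 FPKM in LPS-MIC-1. The groups lay in this order without overlap, but the steps were under the fold threshold both between LPS and control (log2 fold change 0.31, adjusted p = 0.0176) and between LPS-MIC-1 and LPS (0.76, adjusted p = 2.48e-05). LPS-MIC-1 against control passed it, at 2.10-fold (1.07 ± 0.05, adjusted p = 3.05e-06).

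Asns and Trib3 were low in muscle. Asns measured 1.08, 0.948 and 1.12 FPKM in control, 0.544, 0.546 and 0.623 FPKM after LPS and 2.00, 2.48 and 3.40 FPKM in LPS-MIC-1. LPS was below control by 0.78 on the log2 scale without a call (adjusted p = 0.0425), and LPS-MIC-1 was 4.60-fold above LPS (1.99 ± 0.21, adjusted p = 7.88e-05) and 2.50-fold above control (1.22 ± 0.21, adjusted p = 0.00135, but 0.80 and no call with a pseudocount of 1). Trib3 measured 0.552, 0.784 and 0.555 FPKM in control, 0.398, 0.280 and 0.277 FPKM after LPS and 1.98, 1.53 and 1.84 FPKM in LPS-MIC-1. Its 3 groups lay apart, the LPS mean was 1.98-fold below control and the LPS-MIC-1 mean 5.62-fold above LPS. With no minimum on FPKM the log2 fold changes of Trib3 were −0.80 (adjusted p = 0.0602), 2.18 (8.22e-05) and 1.38 (0.0011) for LPS against control, LPS-MIC-1 against LPS and LPS-MIC-1 against control.

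Ddit3 was the gene with the least separation between groups in muscle. It measured 12.99, 12.65 and 15.07 FPKM in control, 11.7, 18.0 and 14.8 FPKM after LPS and 12.4, 9.56 and 9.93 FPKM in LPS-MIC-1. No comparison called it. The LPS libraries overlapped both other groups, with 95% intervals of the log2 difference from −0.26 to 0.48 against control and from −0.84 to −0.09 for LPS-MIC-1 against LPS. Its LPS-MIC-1 libraries were below all control libraries by 0.36 on the log2 scale (adjusted p = 0.0923).

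Herpud1 led the ER arm in muscle. It measured 94.2, 92.8 and 94.8 FPKM in control, 90.6, 95.1 and 87.4 FPKM after LPS and 215.6, 221.0 and 195.7 FPKM in LPS-MIC-1. Control and LPS overlapped (interval of the log2 difference −0.16 to 0.07), and LPS-MIC-1 was 2.32-fold above LPS (log2 fold change 1.21 ± 0.05, adjusted p = 2.75e-07) and 2.24-fold above control (adjusted p = 3.33e-07). Dnajb9 measured 14.7, 15.2 and 14.3 FPKM in control, 20.7, 19.9 and 22.7 FPKM after LPS and 49.3, 46.3 and 43.1 FPKM in LPS-MIC-1. Its groups lay in this order without overlap, apart by a log2 difference of 0.52 with LPS that was under the fold threshold (adjusted p = 0.00151), then 2.19-fold from LPS to LPS-MIC-1 (1.12 ± 0.07, adjusted p = 2.23e-06), and LPS-MIC-1 was 3.14-fold above control (adjusted p = 2.22e-07).

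The remaining ER genes differed by less than the fold threshold in every muscle comparison. Hspa5 measured 40.3, 38.4 and 38.7 FPKM in control, 62.7, 62.8 and 65.0 FPKM after LPS and 65.8, 59.0 and 65.8 FPKM in LPS-MIC-1. Its LPS libraries were all above control (log2 difference 0.70, adjusted p = 6.66e-05), while LPS and LPS-MIC-1 overlapped with an interval of the log2 difference from −0.11 to 0.11. Xbp1 measured 27.8, 29.2 and 27.3 FPKM in control, 36.9, 35.0 and 34.2 FPKM after LPS and 49.5, 52.7 and 50.6 FPKM in LPS-MIC-1. Its groups lay in this order without overlap, apart by 0.33 (adjusted p = 0.0021) and then 0.52 (adjusted p = 2.21e-05) on the log2 scale.

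Between LPS-MIC-1 and LPS in muscle, Atf3, Chac1, Asns, Herpud1 and Dnajb9 were upregulated, 5 of the 9 genes tested, and none was downregulated, beside 9.67% of all genes called higher and 5.44% lower, 15.1% in all. Between LPS-MIC-1 and control, Atf3, Dnajb9, Asns, Herpud1 and Atf4 were upregulated, again 5 of 9, beside 9.33% higher and 6.12% lower, 15.5% in all. The median log2 fold changes of the 9 genes were 1.12 and 1.07, against −0.01 and 0.01 for all genes. Over all 10 genes 8 were higher without overlap than in LPS, beside 32.5% of all genes, while none was lower, beside 31.7%, and 9 were higher and Ddit3 lower than in control, beside 33.4% higher and 31.1% lower. Summed macrophage, neutrophil, hepatocyte, adipocyte, fibroblast and myoblast markers were higher and muscle fibre genes lower in the same LPS-MIC-1 libraries, at the values given above. Single markers of a list could go apart, as Dcn and Col3a1 of the fibroblast list did. The part of the markers in these differences was not tested. Without LPS-MIC-1 replicate 3, the library with the most macrophage markers, the counts of called genes were 2, 5 and 5 in the 3 muscle comparisons, as with it. Replicates 1 and 2 still lay above every LPS and control library in macrophage markers, at 32.3 and 30.6 FPKM.

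**Figure D3:**
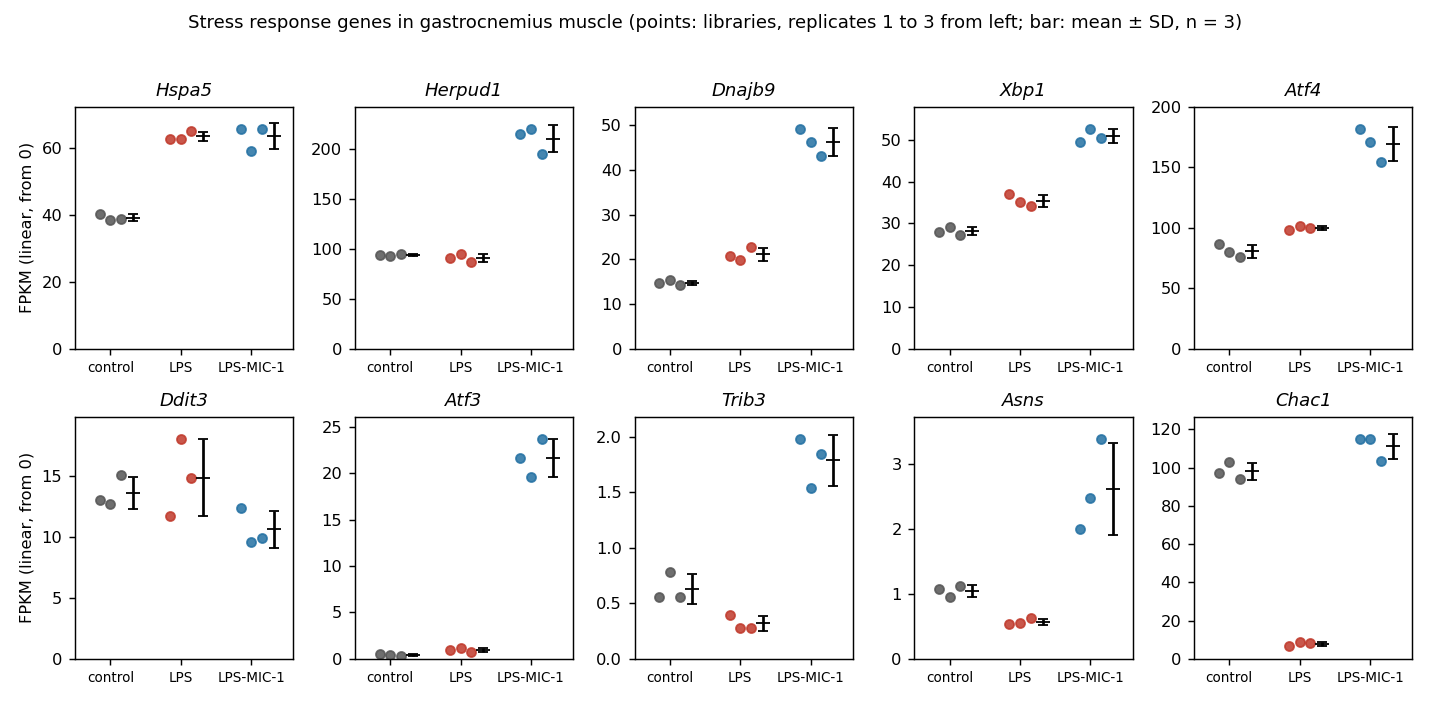
FPKM of the 10 stress response genes in the 9 gastrocnemius libraries, on linear axes that start at 0 and differ between panels. Points are libraries, replicates 1 to 3 from left, and bars are the mean ± SD (n = 3); Chac1 is low in the LPS libraries alone, Atf3, Herpud1 and Dnajb9 are high in LPS-MIC-1 alone, and the LPS libraries overlap both other groups for Ddit3.

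In control muscle the order of levels was Chac1 (98.02 ± 4.54 FPKM, SD, n = 3), Herpud1 (93.9 ± 1.0), Atf4 (80.6 ± 5.4), Hspa5 (39.1 ± 1.0), Xbp1 (28.1 ± 1.0), Dnajb9 (14.7 ± 0.5), Ddit3 (13.6 ± 1.3), Asns (1.05 ± 0.09), Trib3 (0.631 ± 0.133) and Atf3 (0.410 ± 0.081), where Chac1 overlapped Herpud1 and Dnajb9 overlapped Ddit3. After LPS the order was led by Atf4 (99.6 ± 1.7 FPKM), Chac1 (7.76 ± 1.06) stood in the 7th place and no neighbours overlapped. In LPS-MIC-1 Herpud1 (211 ± 13 FPKM), Atf4 (169 ± 14) and Chac1 (111 ± 7) led, Atf3 (21.7 ± 2.1) stood above Ddit3 (10.6 ± 1.5), and again no neighbours overlapped.

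None of the 88 wider pathway genes tested in muscle was called by limma between LPS and control, beside 1.25% of all genes, while 28 had an unadjusted p under 0.05 at any fold, beside 29.6% of all genes. Between LPS-MIC-1 and LPS 14 were called, 11 higher and 3 lower, beside 15.1% of all genes, with a median log2 fold change of 0.19. Of the 11 rises, 6 lay among the 10 feedback regulators tested, beside 9.67% of all genes called higher. Ddit4, the mTORC1 inhibitor, measured 3.64, 4.39 and 4.88 FPKM in control, 2.48, 2.64 and 2.41 FPKM after LPS and 231.1, 253.8 and 233.7 FPKM after both LPS and MIC-1, which was 6.52 ± 0.10 above LPS on the log2 scale (adjusted p = 1.22e-09). Ppp1r15a averaged 15.7, 17.3 and 118 FPKM in the 3 groups (2.76 ± 0.06 over LPS, adjusted p = 5.31e-09). In amino acid supply, 4 of 11 were called higher and 1 lower, beside 9.67% and 5.44% of all genes. Cth averaged 0.633, 0.546 and 3.71 FPKM and the leucine transporter Slc7a5 0.884, 0.660 and 3.27 FPKM, whereas the proline synthesis enzyme Aldh18a1 was lower in the LPS-MIC-1 libraries than in LPS (3.05 to 1.36 FPKM, adjusted p = 0.00218).

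None of the 8 sensors and none of the 13 synthetases tested passed the thresholds between LPS-MIC-1 and LPS in muscle, beside 15.1% of all genes. An adjusted p under 0.05 with a smaller fold was found for 4 of the sensors and 9 of the synthetases, beside 56.5% of all genes at any fold. In the ER, Fkbp2 fell from 12.9 to 5.03 FPKM (adjusted p = 0.00952) and Kdelr3 from 1.67 to 0.568 FPKM (adjusted p = 0.0038), and Edem1 rose from 0.907 to 2.65 FPKM (adjusted p = 0.000367). Called were 1 of 20 folding genes (5%) and 2 of 26 genes of ERAD and secretion (7.69%), beside the same 15.1% of all genes. Against control 14 genes were called as well, 12 higher and 2 lower, beside 15.5% of all genes. Ddit4 (log2 fold change 5.78), Ppp1r15a (2.90), Cth (2.38), Slc7a5 (1.77), Fkbp2 (−1.33), Edem1 (1.16) and Kdelr3 (−1.29) were called in this comparison too. Eif2ak4 was called higher than control (0.467 to 2.55 FPKM, adjusted p = 0.0269), but it was listed at 0 in all but 1 of the control libraries and the call was lost without control replicate 2 or 3 or LPS-MIC-1 replicate 3.

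**Figure D4:**
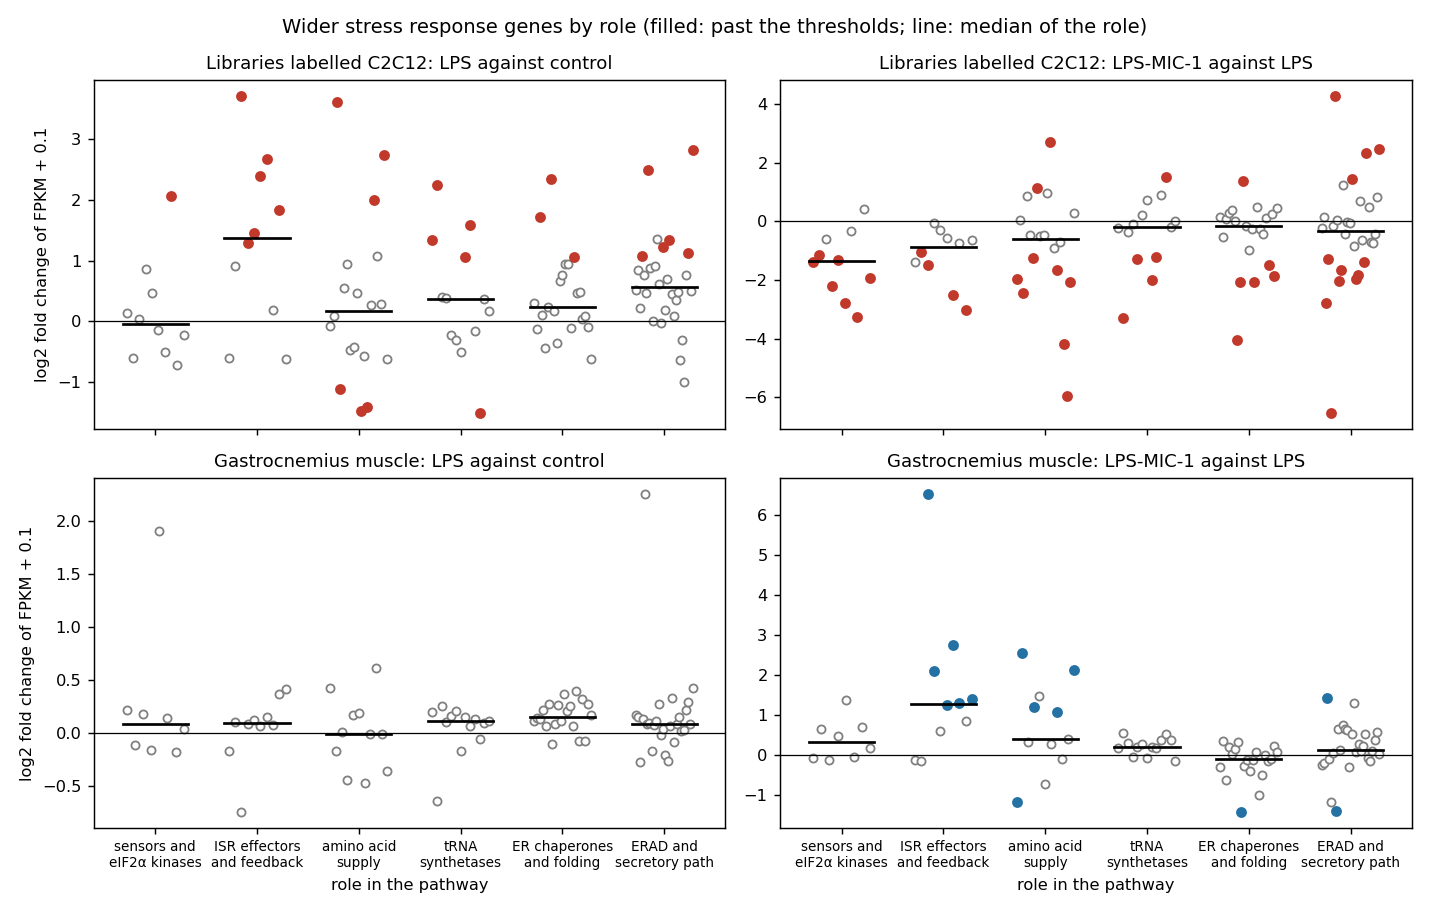
Log2 fold changes of FPKM + 0.1 of the tested wider pathway genes by role, for libraries labelled C2C12 (top) and gastrocnemius muscle (bottom). LPS against control is on the left and LPS-MIC-1 against LPS on the right. Filled points passed both thresholds, and lines are the median of the role. In muscle 6 of 10 feedback regulators were called higher for LPS-MIC-1 against LPS, beside 9.67% of all genes. None of 13 synthetases was called there, beside 15.1% of all genes in either direction. In C2C12 7 of 10 sensors were called lower and none higher for LPS-MIC-1 against LPS, beside 25.6% and 24.3% of all genes.

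The 2 experiments were fitted apart, so their log2 fold changes are set side by side without a test of the difference. After LPS, Chac1 stood at 2.31 in C2C12 and −3.65 in muscle, Trib3 at 2.90 and −0.80, Asns at 1.55 and −0.78 and Xbp1 at −1.29 and 0.33, with no overlap between groups in either experiment. Between LPS-MIC-1 and LPS, Atf3 stood at −4.25 and 4.40, Asns at −1.28 and 1.99, Dnajb9 at −2.06 and 1.12 and Atf4 at −1.62 and 0.76. Higher after LPS without overlap in both experiments were Hspa5 (2.84 and 0.70), Atf3 (2.08 and 1.03), Atf4 (1.74 and 0.31) and Dnajb9 (2.13 and 0.52). Cell type markers, LPS dose, exposure time and the form of MIC-1 treatment also differed between the experiments. The C2C12 libraries labelled control and LPS carried macrophage markers and lacked those of myoblasts, as given above.

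**Figure D5:**
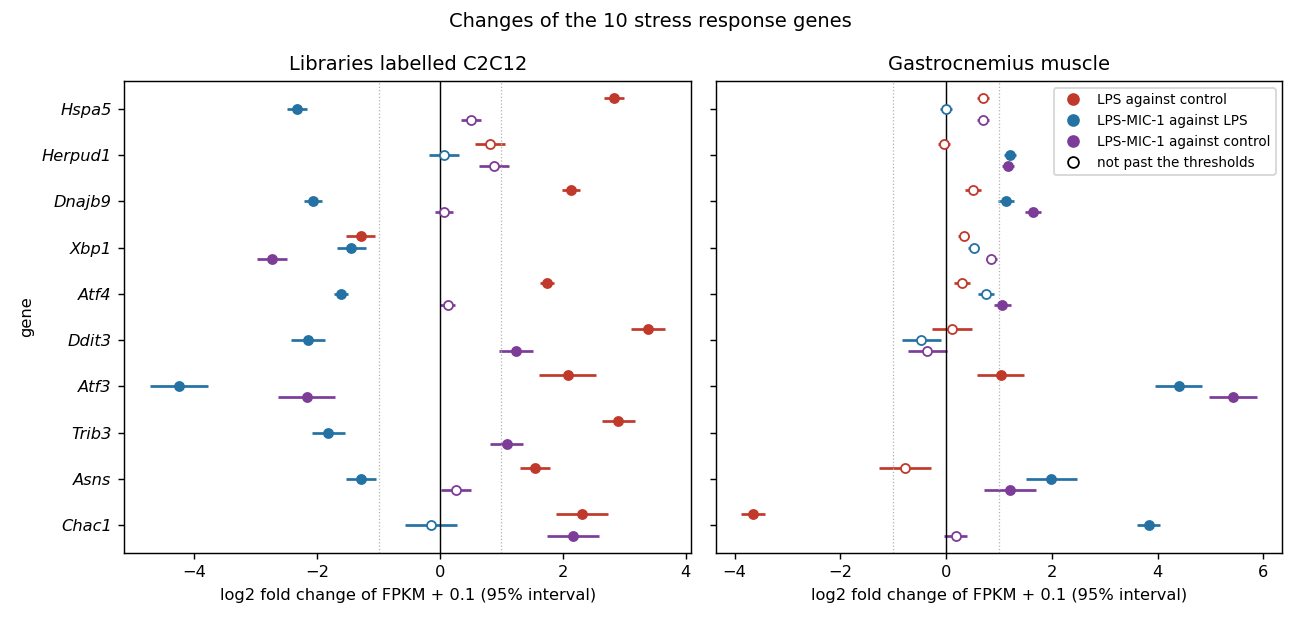
Log2 fold changes of FPKM + 0.1 with 95% intervals for the 10 genes in 3 comparisons, for libraries labelled C2C12 (left) and gastrocnemius muscle (right, without Trib3, which was not tested). Filled symbols passed both thresholds and dotted lines mark the fold threshold; Atf3 in LPS-MIC-1 against LPS lies at −4.25 on the left and 4.40 on the right.

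The genes whose pattern over the 9 libraries was most like that of Hspa5 and Ddit3 were ranked by the root mean square difference of centred log2(FPKM + 0.1), a description in which all points share libraries. In C2C12 the nearest to Hspa5 of 10876 genes were Dusp4 (0.10), Tiparp (0.11) and Igf2bp2 (0.12), and the nearest of the other stress genes was Dnajb9 in place 27 (0.30). The nearest to Ddit3 were Tnfaip3 (0.16), Nfkbiz (0.17) and Plin2 (0.19), with Trib3 in place 12 (0.30). In muscle the nearest to Hspa5 of 9474 genes were Actn2 (0.09), Gbe1 (0.10) and Pm20d2 (0.10), with Xbp1 in place 373 (0.24), and the nearest to Ddit3 were 1110001A16Rik (0.11), Katna1 (0.12) and Mrps6 (0.13), with Hspa5 in place 5988 (0.47).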

How the data were processed

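FPKM values of 18 libraries in 2 tables were deposited by the authors, who used kallisto for pseudoalignment and tximport for summaries at the gene level; per the labels' processing notes the build was mm9. The muscle table also holds 9 unnamed columns of per-sample values, which were not used. The authors deposited 6 DESeq2 tables with log2 fold changes and p-values, which were not used. Their base means, a signal of normalised counts averaged by the authors over 6 libraries, were read from 5 of them to show depth. Base means of muscle LPS against control were left out.

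Samples were grouped by their labels. limma 3.58.1 (R 4.3.3) was fitted to log2(FPKM + 0.1) of the 9 libraries of an experiment, with a mean per group and a trended variance, for genes with a mean over 1 FPKM. Adjustment was by Benjamini-Hochberg over all genes tested. Intervals are 95% intervals of the fit, SE its standard error. The members, pathway lists and markers were chosen with earlier results of these data known. Named pathway genes are the 2 largest rises and falls per role and comparison among called genes whose groups did not overlap. Alternatives changed the pseudocount, the FPKM minimum, the scaling, the libraries fitted and the replicate block. The code was tested on simulated data. Figures were drawn with matplotlib 3.10.9. No coordinates or sequences were used.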

Additional observations from a re-analysis of the deposited data

Results flagged for a closer look

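For 13 combinations of gene and comparison, all libraries moved one way in C2C12 and the opposite way in muscle. These were 4 of the 10 genes for LPS against control, 6 for LPS-MIC-1 against LPS and 3 for LPS-MIC-1 against control. The share of all genes that did so was not counted, so these counts are not shown to be unusual. For LPS-MIC-1 against LPS, 41.8% of all genes were higher and 43.7% lower without overlap in C2C12, beside 32.5% and 31.7% in muscle. For LPS against control these shares were 39.4% and 40.1%, beside 18.8% and 17.7%. The difference between experiments was not tested, and cell type markers, doses and times also differed between them. As the log2 change in C2C12 minus that in muscle, LPS against control gave −1.62 for Xbp1, 3.71 for Trib3, 2.32 for Asns and 5.96 for Chac1. LPS-MIC-1 against LPS gave −8.65 for Atf3, −2.38 for Atf4, −1.97 for Xbp1, −3.99 for Trib3, −3.28 for Asns and −3.19 for Dnajb9. LPS-MIC-1 against control gave 1.60 for Ddit3, −7.60 for Atf3 and −3.59 for Xbp1. The muscle values of Trib3 were below the FPKM minimum and come from the fit without it. Groups of 3 libraries were too small to look for single outlying libraries by rule.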

How the results depend on the processing

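Over 19 alternatives the count of stress genes called stayed at 9 and 8 in C2C12 for LPS against control and LPS-MIC-1 against LPS, and was 4 or 5 for LPS-MIC-1 against control, and 4 to 6 in both muscle comparisons with LPS-MIC-1. In muscle after LPS it was 1 instead of 2 with a pseudocount of 1 and with quantile normalization, and 1 to 2 with single libraries left out, Atf3 being the gene lost, with log2 fold changes from 0.46 to 1.22. Of the wider pathway genes, the muscle count after LPS was 0 to 1 with single libraries left out (Eif2ak4 without control replicate 1). For LPS-MIC-1 against LPS it was 9 with a pseudocount of 1 and 7 with a mean over 5 FPKM, and for LPS-MIC-1 against control 7 with a mean over 5 FPKM, which tests fewer genes. Directions reversed for values that were not called. With quantile normalization in C2C12 these were Herpud1 between LPS-MIC-1 and LPS (−0.20) and, between LPS-MIC-1 and control, Hspa5 (−0.11), Atf4 (−0.36) and Asns (−0.029). In C2C12 LPS-MIC-1 against LPS, Chac1 was 0.056 without LPS-MIC-1 replicate 2 and ranged from −0.34 to 0.056 with single libraries left out, and Herpud1 was −0.055 without LPS-MIC-1 replicate 3 and ranged from −0.055 to 0.17. In muscle LPS-MIC-1 against LPS, Hspa5 was 0.0038 with median-ratio scaling, 0.015 without LPS replicate 3 and 0.051 without LPS-MIC-1 replicate 2, with a range of −0.028 to 0.051 over single libraries left out, and Ddit3 was −0.039 for LPS against control without LPS replicate 2, with a range of −0.039 to 0.27. Asns in muscle LPS-MIC-1 against control lost its call with a pseudocount of 1 (0.80). The cause was not tested. Quantile normalization moved the median of all muscle genes to −0.12 and −0.10 in LPS-MIC-1 against LPS and against control.

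Libraries with the same replicate number did not deviate together (correlations −0.08 to 0.06 in C2C12 and −0.05 to 0.08 in muscle). No pairing by number was thus seen, but with 3 libraries per group this cannot exclude that libraries with the same number were handled together. With the replicate block the counts of stress genes called were 9, 8 and 5 in C2C12 and 2, 5 and 5 in muscle, as without it, and those of pathway genes 27, 43 and 36 in C2C12 and 0, 14 and 14 in muscle.

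Of the pathway genes named, 10 of 32 in C2C12 and 4 of 9 in muscle lost a call under at least 1 alternative, with no change of direction. Values near 0 FPKM rest on few reads, and read depth per library is unknown.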
